A study of Mus musculus with 4 samples.

Results

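Transcripts of the MHC class II antigen presentation machinery were examined in group 2 innate lymphoid cells (ILC2s) sorted from the mouse colon. The 9 genes were chosen by name from the 27179 gene identifiers in the deposited count table: the class II chains H2-Aa, H2-Ab1 and H2-Eb1, the invariant chain Cd74, the peptide editors H2-DMa, H2-DMb1, H2-Oa and H2-Ob, and the transactivator Ciita. All 9 were in the table and all 9 entered the test, among 11841 tested genes. The libraries came from C57BL/6J mice on a high-fiber diet (2 mice) or a control diet (2 mice), with 1 mouse per library, and the comparison asked how the diet bears on the transcripts of these cells. The sources used here do not give the kind of fiber, the time on the diet, the age of the mice or the gates of the sort.

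MHC class II molecules are pairs of an alpha and a beta chain that show peptides from endosomes to CD4+ T cells. The invariant chain fills the groove of a new class II molecule until endosomal proteases trim it away. H2-DM, a pair of H2-DMa and H2-DMb proteins, then exchanges the remaining fragment for other peptides, and H2-O, a pair of H2-Oa and H2-Ob, restrains H2-DM. Ciita is the coactivator that class II promoters need in professional antigen-presenting cells, and interferon gamma induces it in many other cells. B cells, dendritic cells and macrophages carry the most class II. ILC2s and ILC3s of the mouse are also known to carry it at lower levels.

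Class II promoters are known for an X box, which the RFX complex binds, followed by a Y box, which NF-Y binds. The stretches below, from RefSeq promoters of the GRCm38.p6 build, show these elements for the members on chromosome 17 in which a Y box core stood close before the start. Promoter windows of 250 bases before to 50 bases after the start were matched for 6 of the 9 genes, with 2 windows for H2-DMa. Capitals mark the Y box core ATTGG and, where it is there, the end of an X box, ANNGATG. The stretches lie at chr17:34287847-34287921 for H2-Aa (minus strand), chr17:34305758-34305832 for H2-Eb1 (plus strand), chr17:34153080-34153154 for H2-DMb1 (plus strand), chr17:34092286-34092360 for H2-Oa (plus strand) and chr17:34238798-34238872 for H2-Ob (plus strand).
H2-Eb1: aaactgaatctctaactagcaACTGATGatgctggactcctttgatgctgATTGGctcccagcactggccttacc
H2-DMb1: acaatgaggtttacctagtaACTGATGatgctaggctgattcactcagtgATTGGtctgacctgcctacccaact
H2-Ob: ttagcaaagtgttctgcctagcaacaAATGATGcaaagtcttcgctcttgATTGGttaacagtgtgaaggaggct
H2-Aa: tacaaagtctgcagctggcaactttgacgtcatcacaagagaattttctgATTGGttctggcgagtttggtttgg
H2-Oa: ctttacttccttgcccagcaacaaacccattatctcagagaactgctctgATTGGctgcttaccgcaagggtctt

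Both elements in order, with 15 to 30 bases between them on the same strand, were found in the windows of H2-Eb1 (22 bases between), H2-DMb1 (23) and H2-Ob (17). On either strand, this arrangement was present in 0.743% of 32851 mouse promoter windows, ATTGG in 37.4% and ANNGATG in 38.6%. H2-Aa and H2-Oa had an ATTGG 48 and 43 bases before the start without that X box end at that spacing, and neither window of H2-DMa had the arrangement. A match is a description of letters, and its absence says only that these letters do not stand in the window.

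The libraries held 29263068 and 20750263 counts on the high-fiber diet and 30406730 and 20253987 counts on the control diet. The 12 ILC2 markers listed, among them Gata3, Il1rl1, Klrg1 and Il5, had counts in every library, and Gata3, the factor that ILC2s depend on, was at 1296 and 766 CPM in high-fiber mice and at 1615 and 1026 CPM in control mice. Levels are given as CPM (counts of a gene relative to the scaled library size), and tests are the quasi-likelihood test of edgeR, adjusted by Benjamini-Hochberg over all 11841 genes. On this test 4 genes were higher on the high-fiber diet (0.0338% of those tested) and 0 were lower (0.0%). None of the 9 class II genes was among them. At an unadjusted p under 0.05, 3 of the 9 were higher (H2-Ab1, Cd74 and H2-Ob), against 4.7% of all tested genes, and 0 were lower, against 4.1%. DESeq2 called H2-Ab1 alone among the members, higher, where it called 1.28% of genes higher and 0.635% lower. Because the members were picked by name with earlier results of these data known, these counts are descriptive.

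Among the class II chains, H2-Ab1, the beta chain of the I-A molecule, had the lowest unadjusted p of the 9 members. It stood at 214 and 284 CPM in the high-fiber libraries, against 105 and 138 CPM in the control libraries. Both high-fiber libraries were above both control libraries, and the means were 249 ± 49.4 and 122 ± 23.5 CPM (SD, n = 2 each). The log2 fold change was 1.04 ± 0.26 (SE), with an unadjusted p of 0.00638 and an adjusted p of 0.447 in edgeR. DESeq2 gave an adjusted p of 0.0310 for the same gene. That DESeq2 call was lost without high-fiber library 2, control library 1 or control library 2, while it passed without high-fiber library 1.

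H2-Aa, the alpha chain that pairs with H2-Ab1, stood at 92.7 and 94.0 CPM in high-fiber mice, against 39.8 and 79.4 CPM in control mice. The groups did not overlap, but the control libraries lay further from each other than control library 2 lay from the high-fiber ones. The log2 fold change was 0.67 ± 0.36 (edgeR adjusted p = 0.685), and it was 0.24 without control library 1. H2-Eb1, the beta chain of I-E, was at 45.1 and 47.5 CPM in high-fiber mice and at 38.0 and 50.7 CPM in control mice. Its groups overlapped (0.07 ± 0.31, edgeR adjusted p = 0.972). C57BL/6 mice are known to carry a deletion at H2-Ea, the alpha chain partner of H2-Eb1, and so lack I-E on the surface. H2-Ea held 0 counts in all 4 libraries, which at these depths allows up to 0.0993 to 0.147 CPM per library.

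Cd74 encodes the invariant chain and was the most abundant member in every library. It reached 717 and 1099 CPM in the high-fiber libraries, against 507 and 581 CPM in the control libraries. High-fiber library 2 stood highest, and both high-fiber libraries were above both controls. The log2 fold change was 0.74 ± 0.26, with an unadjusted p of 0.0286 and an adjusted p of 0.496 in edgeR. It was 0.39 without high-fiber library 2. Cd74 lies on chromosome 18 from 60803849 to 60812652 in GRCm38.

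The peptide editors gave values that differed from member to member. H2-DMa, the alpha chain of the editor H2-DM, was at 35.3 and 51.5 CPM in high-fiber mice and at 32.8 and 33.5 CPM in control mice. High-fiber library 1 was close to the controls, and the log2 fold change of 0.37 ± 0.34 (edgeR adjusted p = 0.831) was 0.08 without high-fiber library 2. H2-DMb1, its beta chain, was at 9.63 and 7.61 CPM in high-fiber mice and at 4.87 and 6.48 CPM in control mice (0.65 ± 0.62, edgeR adjusted p = 0.837). Of the windows of 50 bases in the H2-DMb1 transcript, 27.2% also occur in a transcript of its neighbour H2-DMb2, so the value of H2-DMb1 is uncertain. H2-DMb2 itself had 1 and 13 counts in the high-fiber libraries and 19 and 1 counts in the control libraries. No such window was shared with another gene for the other 8 members.

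H2-Oa and H2-Ob encode the alpha and beta chains of H2-O, the brake on H2-DM, and they differed from each other. H2-Oa was at 73.9 and 65.2 CPM in high-fiber mice and at 79.0 and 75.4 CPM in control mice, so that high-fiber library 2 was lowest and the 4 libraries stayed close. Its log2 fold change was -0.15 ± 0.25 (edgeR adjusted p = 0.923). H2-Ob had 290 and 207 counts in the high-fiber libraries, against 0 and 70 counts in the control libraries, with means of 10.1 ± 0.0802 and 1.67 ± 2.36 CPM (SD, n = 2 each). Both high-fiber libraries were alike while the control libraries were not. The fitted log2 fold change of 2.86 ± 1.04 (unadjusted p = 0.0296, adjusted p = 0.498 in edgeR) includes the library at 0, and it was 1.60 without control library 1.

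Ciita, the coactivator of the class II genes, had the lowest mean level of the 9 members. It held 19 and 0 counts in the high-fiber libraries, against 22 and 62 counts in the control libraries, which is 0.658 and 0 CPM against 0.728 and 2.95 CPM. The library with no Ciita count, high-fiber library 2, had the highest CPM of Cd74, H2-Ab1, H2-Aa and H2-DMa. A count of 0 there allows up to 0.147 CPM. The log2 fold change was -2.09 ± 1.38 (edgeR adjusted p = 0.742), and it was -0.92 without control library 2. Gene counts do not separate the alternative promoters from which Ciita is known to be transcribed in dendritic cells, B cells and interferon-treated cells.

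**Figure D1:**
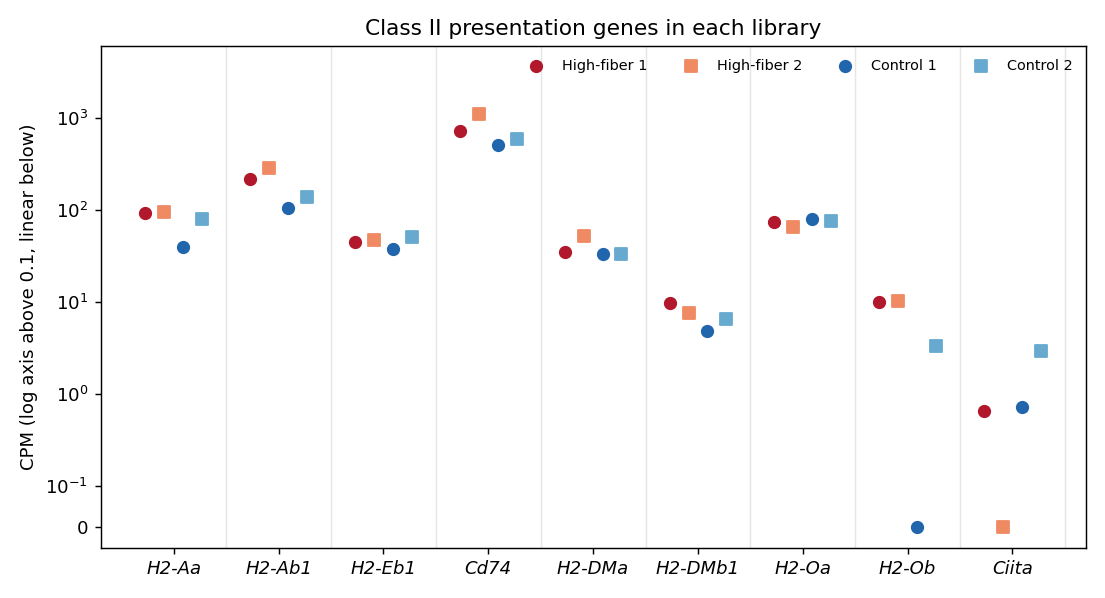
CPM of the 9 class II presentation genes in the 2 high-fiber libraries (red and orange) and the 2 control libraries (dark and light blue), 1 point per library, on an axis that is logarithmic above 0.1 and linear below. H2-Ab1 stood at 214 and 284 CPM in high-fiber mice against 105 and 138 CPM in control mice, and Ciita lay at or below 2.95 CPM in each library.

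Seen together, both high-fiber libraries lay above both control libraries for 6 of the 9 genes, against 18.5% of all tested genes. They lay below for H2-Oa and Ciita, 2 of the 9, against 19.6% of all tested genes. The median log2 fold change was 0.65 over the 9 members and -0.02 over all tested genes. The 9 genes summed to 1199 and 1660 CPM in high-fiber mice and to 807 and 971 CPM in control mice, so that high-fiber library 2 was highest and control library 1 lowest. Cd74 made up 59.8% and 66.2% of these counts in the high-fiber libraries and 62.8% and 59.8% in the control libraries. In bulk RNA, a change in the number of cells that make a transcript and a change in the amount per cell cannot be told apart.

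Ratios between members within a library do not depend on how libraries are scaled. They were chosen after the values had been seen and are given without a test. H2-Ab1 exceeded H2-Eb1 4.75 and 5.98 times in counts on the high-fiber diet and 2.76 and 2.72 times on the control diet, with no overlap between the diets. For H2-Ab1 over H2-Aa the ratios were 2.31 and 3.03 on the high-fiber diet and 2.64 and 1.74 on the control diet, which overlapped. The ratio of Cd74 to H2-Ab1 was 3.35 and 3.87 on the high-fiber diet and 4.83 and 4.21 on the control diet, lower on the high-fiber diet in both libraries. H2-DMa over H2-Oa was 0.477 and 0.789 on the high-fiber diet and 0.416 and 0.444 on the control diet. The proportions of the members were not the same in the 4 libraries.

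**Figure D2:**
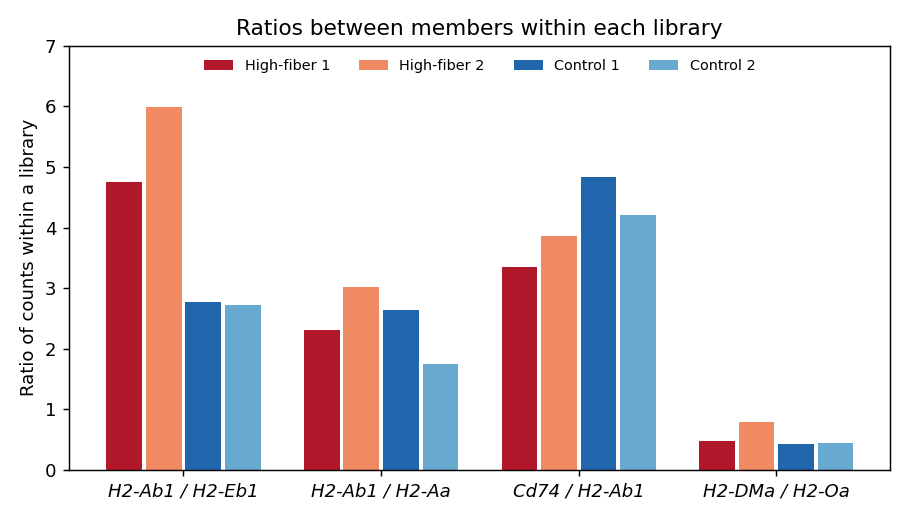
Ratios of counts between pairs of class II genes within each library, with bars for high-fiber libraries 1 and 2 left of control libraries 1 and 2. The ratio of H2-Ab1 to H2-Eb1 was 4.75 and 5.98 on the high-fiber diet against 2.76 and 2.72 on the control diet.

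To compare genes with each other, CPM were divided by the length of the longest principal coding transcript in GENCODE M21. Cd74 led with a mean of 515 CPM per kilobase over the 4 libraries (range 360 to 780), followed by H2-Ab1 with 153 (86.6 to 235). H2-Aa (67.8, range 35.3 to 83.3) and H2-Oa (67.4, range 59.9 to 72.6) came next and did not differ beyond their spread. The same held for H2-Eb1 (27.2, range 22.8 to 30.4) and H2-DMa (23.1, range 19.8 to 31.0). H2-DMb1 (5.09), H2-Ob (2.20) and Ciita (0.181) were the lowest. H2-Ob, the partner of H2-Oa, was at 3.76 and 3.80 CPM per kilobase in high-fiber mice and at 0 and 1.25 in control mice. With the union of all annotated exons as length, a choice made after seeing the data, H2-Oa (52.2) took the third place, ahead of H2-Eb1 (23.3) and H2-Aa (20.1), and did not overlap with H2-Aa over the libraries. H2-Eb1 (range 19.5 to 26.1) and H2-DMa (range 9.53 to 14.9) did not overlap by that length either.

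The 7 H2 members lie on chromosome 17 of GRCm38, between 34092379 (the start of H2-Oa) and 34316674 (the end of H2-Eb1), and Ciita lies on chromosome 16 from 10480014 to 10531064. Some members overlap other genes: H2-Oa overlaps the long noncoding RNA gene BC051537, H2-DMa overlaps Brd2, and Ciita overlaps Dexi. The sources used here do not say whether counting used strand, so reads in shared stretches cannot be assigned. BC051537 had 43 and 4 counts in the high-fiber libraries and 88 and 113 counts in the control libraries, against 1329 to 2385 counts of H2-Oa. Brd2 was at 80.1 and 34.2 CPM in high-fiber mice and at 76.3 and 54.2 CPM in control mice. The part of Brd2 reads in the H2-DMa value was not tested. Dexi was at 27.4 and 11.7 CPM in high-fiber mice and at 12.2 and 8.48 CPM in control mice, in each library far above Ciita.

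The rest of the class II pathway was read from 33 further genes, of which 30 were tested. None passed edgeR over all genes. At an unadjusted p under 0.05, 6 were higher, against 4.7% of all tested genes, and 0 were lower, against 4.1%. DESeq2 called 3 of them higher (Lgmn, Jak2 and Cd83), where it called 1.28% of genes higher. The median log2 fold change was -0.01, with 15 genes positive and 15 negative. The factors that bind class II promoters showed no diet difference at an unadjusted p under 0.05: of 7 tested genes, from Rfx5 to Creb1, log2 fold changes ran from -0.33 to 0.53. Creb1, the most abundant of them, was at 119 and 121 CPM in high-fiber mice and at 137 and 112 CPM in control mice. Rfx5, the DNA-binding subunit of the RFX complex, was at 7.20 and 10.3 CPM in high-fiber mice and at 9.47 and 1.33 CPM in control mice.

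On the path from interferon gamma to Ciita, 2 of 7 genes were higher at an unadjusted p under 0.05, against 4.7% of all tested genes. Jak2, a kinase bound to the interferon gamma receptor and other cytokine receptors, was at 511 and 500 CPM in high-fiber mice, against 289 and 194 CPM in control mice. Its log2 fold change was 1.06 ± 0.25 (edgeR adjusted p = 0.447, DESeq2 adjusted p = 0.00979), and the DESeq2 call was lost without control library 2 (DESeq2 adjusted p = 0.646). Ifngr1, the ligand-binding chain of that receptor, was at 2079 and 2497 CPM in high-fiber mice, against 1656 and 1244 CPM in control mice (0.66 ± 0.24, edgeR adjusted p = 0.499). Both high-fiber libraries were above both control libraries for these 2 of the 7 genes, against 18.5% of all tested genes. Over the 30 tested pathway genes, 8 were higher without overlap and 1 was lower, against 18.5% and 19.6% of all tested genes. Irf1, an interferon-induced factor that acts on a Ciita promoter, was at 247 and 72.1 CPM in high-fiber mice and at 258 and 236 CPM in control mice, with high-fiber library 2 apart.

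Among the endosomal enzymes, Lgmn, a protease that cleaves antigens and the invariant chain, was at 298 and 391 CPM in high-fiber mice, against 48.8 and 35.0 CPM in control mice. Its log2 fold change was 3.02 ± 0.29 (edgeR adjusted p = 0.0585, DESeq2 adjusted p = 7.19e-20). In edgeR it passed the threshold with RLE, upper-quartile or no scaling factors and with a filter of 5 CPM. It did not pass with no filter, limma-voom, legacy=TRUE, a robust prior, the replicate block or any library left out in edgeR (edgeR and limma adjusted p from 0.0675 to 0.542), while DESeq2 called it without each library in turn. Ctss, the cathepsin known to trim the invariant chain in antigen-presenting cells, was at 167 and 246 CPM in high-fiber mice and at 147 and 135 CPM in control mice, without overlap (0.55 ± 0.26, edgeR adjusted p = 0.648). Ctsb was the most abundant of the 6, at 838 and 780 CPM in high-fiber mice and at 714 and 715 CPM in control mice.

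Cd83, a surface protein that protects class II from the ubiquitin ligase Marchf1, was at 708 and 815 CPM in high-fiber mice, against 415 and 247 CPM in control mice. Its log2 fold change was 1.20 ± 0.29 (edgeR adjusted p = 0.447, DESeq2 adjusted p = 0.00818), and the DESeq2 call was lost without control library 2 (DESeq2 adjusted p = 0.505). Marchf1 was at 0.416 and 1.52 CPM in high-fiber mice and at 5.93 and 0 CPM in control mice. Of the costimulatory ligands, Cd86 had 159 and 413 counts on the high-fiber diet, against 33 and 0 counts on the control diet (4.23 ± 1.27, edgeR adjusted p = 0.447). The fitted log2 fold change of Cd86 includes the library at 0; it was 3.09 without high-fiber library 2 and 3.49 without control library 2, and without control library 1 the remaining control is at 0, which gives no fold. DESeq2 did not call Cd86 with all libraries (DESeq2 adjusted p = 0.0826) but did without high-fiber library 1 (0.0139) or control library 1 (0.00214). Cd80 had 54 and 0 counts on the high-fiber diet, against 1 and 0 on the control diet. Tnfsf4, the OX40 ligand through which ILC2s are known to act on T cells, was at 28.3 and 32.5 CPM in high-fiber mice, against 12.7 and 16.2 CPM in control mice (1.09 ± 0.40, edgeR adjusted p = 0.4995). Cd274, which encodes PD-L1 and was the most abundant of these ligands, was at 115 and 126 CPM in high-fiber mice and at 120 and 85.8 CPM in control mice.

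Class I presentation, which all nucleated cells share, was set beside class II. At an unadjusted p under 0.05 in edgeR, 0 of its 9 genes were higher, against 4.7% of all tested genes, and 1, Tapbp, was lower, against 4.1%. Neither edgeR nor DESeq2 called any after adjustment. Tapbp, which encodes tapasin, was at 349 and 222 CPM in high-fiber mice, against 557 and 404 CPM in control mice (-0.75 ± 0.30, edgeR adjusted p = 0.534). H2-D1, the most abundant, was at 7062 and 4766 CPM in high-fiber mice and at 6238 and 6202 CPM in control mice. The median log2 fold change of the class I genes was -0.04. The difference between class I and class II was not tested.

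**Figure D3:**
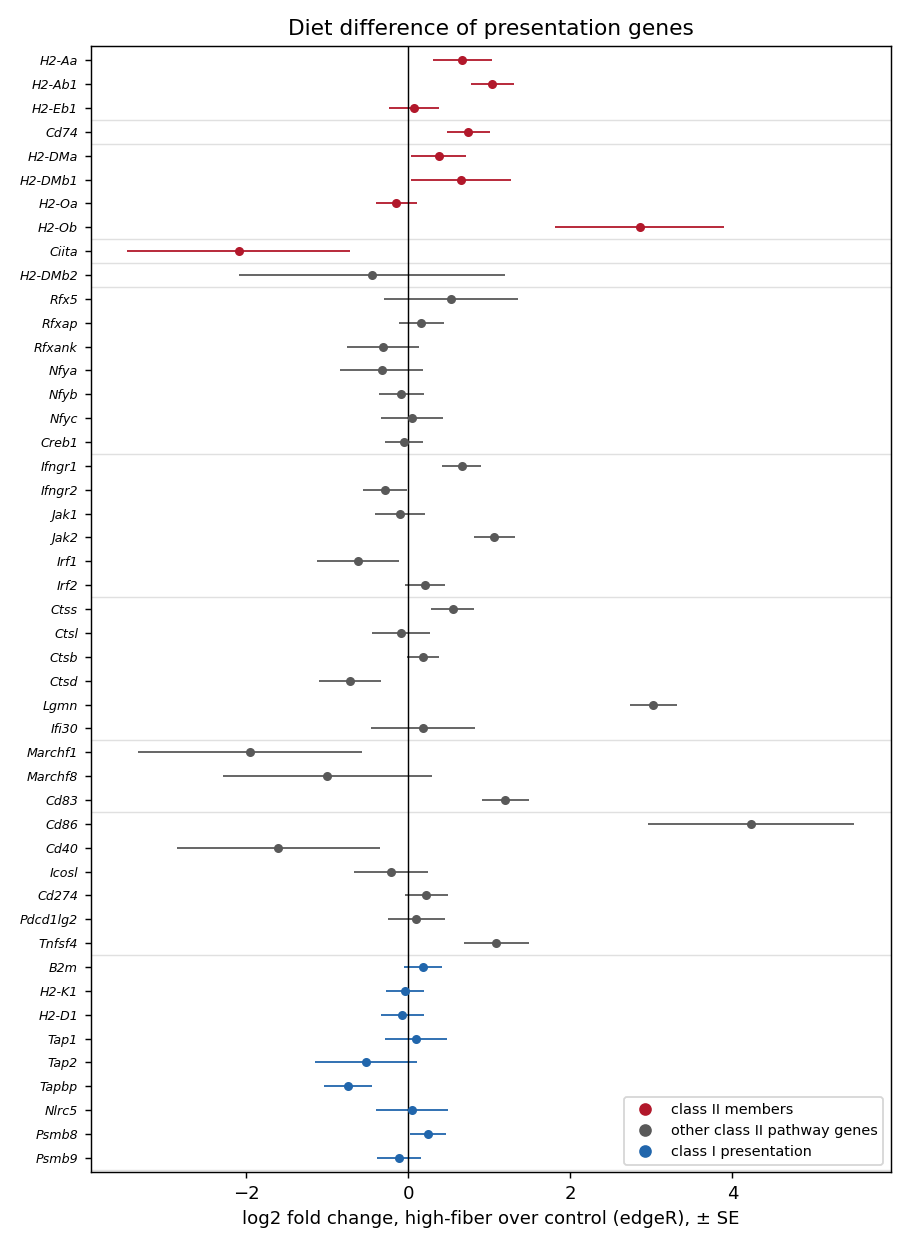
Log2 fold change of high-fiber over control from edgeR with its SE (horizontal bars), for the 9 class II members (red, top), the other reported genes of the pathway (grey) and 9 class I genes (blue, bottom), in groups by role. H2-Ab1 lies at 1.04 and Ciita at -2.09, and Lgmn at 3.02 has a short bar beside its size.

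The sort could hold other cells that carry class II, so their markers were read in the same libraries. The B cell transcription factor Pax5 and the B cell genes Blk and Bank1 were at 0 counts in each library, and 9 of 12 B cell markers, Ms4a1 (CD20) included, stayed under 1 CPM in each. The 12 summed to 41.2 and 60.9 CPM in high-fiber mice and to 24.9 and 28.2 CPM in control mice. Nearly all of that was Cd79b, a chain of the B cell receptor complex, at 39.4 and 57.5 CPM in high-fiber mice and at 24.0 and 27.5 CPM in control mice. Its partner chain Cd79a was at 1.18 and 1.08 CPM in high-fiber mice and at 0.563 and 0.0476 CPM in control mice. The B cell sum, nearly all Cd79b, and the class II sum had the same order over the libraries, from high-fiber library 2 down to control library 1. Cd79a had another order, highest in high-fiber library 1 and lowest in control library 2. The part of B cells in the class II values was not tested.

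The sum of the plasma cell markers was higher in both high-fiber libraries as well. The 8 markers summed to 305 and 1170 CPM in high-fiber mice and to 131 and 11.5 CPM in control mice. Nearly all of that was the immunoglobulin transcripts Igkc and Igha, and Jchain. Tnfrsf17 was at 0 counts throughout. In high-fiber library 2, where the sum was highest, Sdc1 and Derl3 had 0 counts and Mzb1 had 1. In high-fiber library 1 these had 47, 42 and 12 counts, and in the control libraries at most 3. The order of the control libraries was opposite to that of the class II sum. Control library 1 was higher in plasma cell transcripts and lower in H2-Ab1, H2-Aa and Cd74. H2-Oa had the order of the plasma cell sum, at 79.0 CPM in control library 1 and 75.4 CPM in control library 2. The part of plasma cells in the class II values was not tested.

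For dendritic cells, the integrin gene Itgax (CD11c) and Clec10a were at 0 counts in each library. Flt3 was detected in control library 2 alone (1.57 CPM), and Clec9a and Siglech were under 1 CPM. Xcr1, a chemokine receptor of cross-presenting dendritic cells, was at 31.5 and 37.5 CPM in high-fiber mice and at 60.8 and 28.3 CPM in control mice. The 10 markers summed to 164 and 149 CPM in high-fiber mice and to 165 and 146 CPM in control mice, so the groups overlapped. Zbtb46 and Ccr7 were the most abundant of them, Zbtb46 at 69.8 and 62.1 CPM in high-fiber mice and at 95.0 and 74.2 CPM in control mice. Ccr7 was at 60.8 and 48.8 CPM in high-fiber mice and at 9.34 and 39.9 CPM in control mice.

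Of 14 macrophage and monocyte markers, 13 had counts in some library and Mertk was at 0. Their sum was 174 and 211 CPM in high-fiber mice and 92.9 and 174 CPM in control mice, with high-fiber library 1 and control library 2 close to each other. Lyz2, lysozyme, was the most abundant, at 72.3 and 106 CPM in high-fiber mice and at 22.3 and 75.3 CPM in control mice. Next came Cd14, at 35.6 and 19.1 CPM in high-fiber mice and at 15.5 and 19.2 CPM in control mice. Control library 1 was thus lowest and high-fiber library 2 highest both in the macrophage sum and in the class II sum. Single markers differed in this. C1qb (high-fiber 13.7 and 21.5 CPM, control 10.5 and 14.3 CPM) and C1qc (18.0 and 26.9 CPM, 12.7 and 24.2 CPM) had these extremes, as did Lyz2. No other marker of the list had both extremes. Ms4a7 was highest in control library 1 (high-fiber 8.14 and 9.42 CPM, control 12.0 and 3.91 CPM), as was Mrc1. Cd68, Aif1, Cx3cr1 and Fcgr1 were highest in control library 2. C1qa was lowest in high-fiber library 2 (high-fiber 14.2 and 7.61 CPM, control 7.95 and 9.34 CPM). Csf1r had 80 and 0 counts on the high-fiber diet and 0 and 100 counts on the control diet. The part of macrophages in the class II values was not tested.

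Markers of ILC3s, T cells and epithelial cells were read in the same way. Il22, Il23r and Ccr6, genes of ILC3s, had 0 counts in all libraries, and the 6 ILC3 markers summed to 30.2 and 41.6 CPM in high-fiber mice and to 70.0 and 51.9 CPM in control mice, mostly Lta, beside Ncr1. The 9 T cell markers summed to 535 and 653 CPM in high-fiber mice and to 648 and 748 CPM in control mice. In each library that was above the B cell, dendritic cell and macrophage sums, whose lists differ in size. Most of it was Lat (high-fiber 328 and 456 CPM, control 437 and 478 CPM) and Trbc2 (high-fiber 197 and 170 CPM, control 174 and 227 CPM). Cd3e was at 1.21 and 5.30 CPM in high-fiber mice and at 5.79 and 13.2 CPM in control mice. Trac was at 4.16 and 10.6 CPM in high-fiber mice and at 14.9 and 9.67 CPM in control mice. Cd4 had 12 and 0 counts on the high-fiber diet and 0 in both control libraries, and Cd8a was at 0 throughout. Of 10 epithelial markers 7 were at 0 in every library (Krt8, Krt20, Cdh1, Vil1, Muc2, Car1 and Phgr1). Their sum was 31.9 and 42.0 CPM in high-fiber mice and 38.3 and 31.0 CPM in control mice, led by Epcam and Lgals4. By comparison, the 12 ILC2 markers, led by Il5 and Klrg1, summed to 16128 and 13741 CPM in high-fiber mice and to 13158 and 11145 CPM in control mice. Il5 alone was at 5889 and 3799 CPM in high-fiber mice and at 3043 and 2559 CPM in control mice. The listed ILC2 marker Il13 was at 18.2 and 9.62 CPM in high-fiber mice and at 13.5 and 11.4 CPM in control mice. These bulk counts do not show which cells made the class II transcripts.

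**Figure D4:**
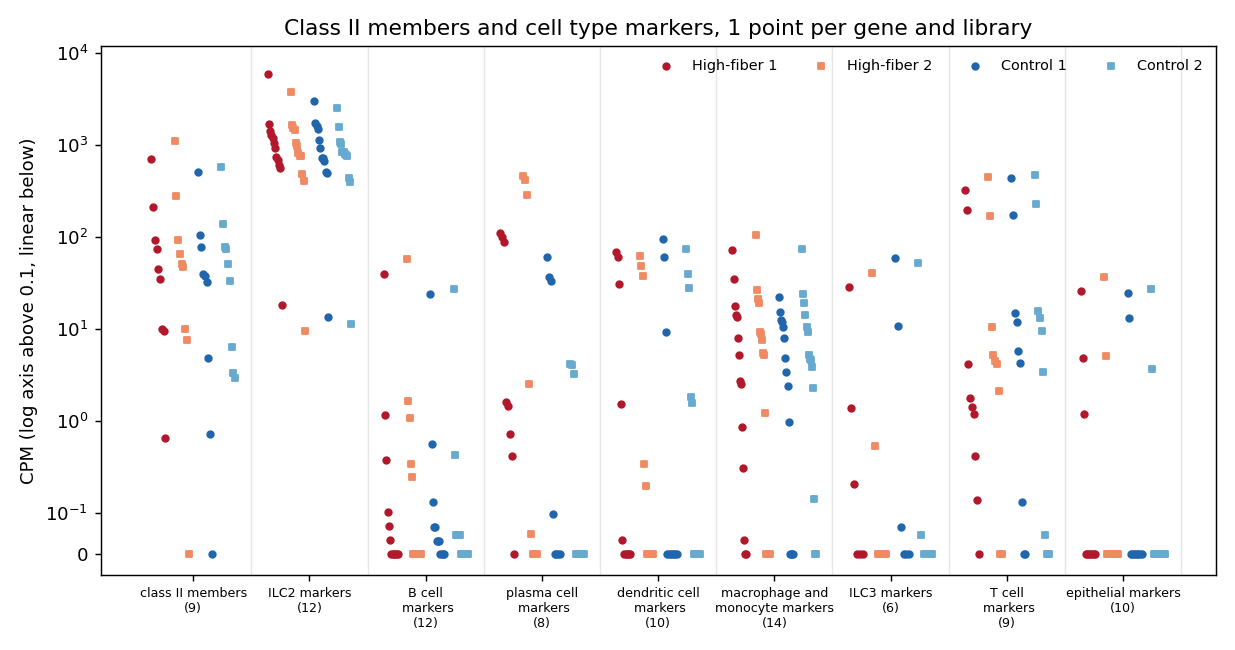
CPM of each class II member and of each marker gene by cell type, 1 point per gene and library, with high-fiber libraries 1 and 2 left of control libraries 1 and 2 in each block and the number of genes in brackets. The axis is logarithmic above 0.1 and linear below, and Pax5, Blk and Bank1 among B cell markers and Itgax and Clec10a among dendritic cell markers lie at 0.

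The genes whose profile over the 4 libraries was nearest to the mean of the 6 members with at least 10 CPM were Srp9, Acot9, Pomp, Tmem256 and Sem1, out of 3679 other genes with at least 50 CPM. Likeness was the Euclidean distance of log2 CPM centred over the libraries, which was 0.0240 for Srp9 and 0.0536 for Sem1. Srp9, a subunit of the signal recognition particle, was at 108 and 125 CPM in high-fiber mice and at 74.4 and 94.0 CPM in control mice. With 4 libraries such likeness is common: 348 genes lay within a distance of 0.3. Single members departed from the mean profile, so these genes are near the mean and not near each member. In control library 1 the centred log2 CPM was -0.86 for H2-Aa and 0.11 for H2-Oa, against -0.39 for the mean.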

How the data were processed

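Total RNA of colonic ILC2s was made into cDNA libraries with the SMARTer Ultra Low Input kit V4, per the labels' protocols. The deposited table holds counts per gene identifier, not normalized, which the authors made. The submitters' processing notes name CASAVA 1.8.2, STAR 2.3.0 and mm10 without their roles; the counting tool, strand setting and read length were not given in the sources used here. Symbols were matched by NCBI identifier to RefSeq GRCm38.p6 (25275 of 27179 identifiers), with older symbols where needed. Library totals were 20253987 to 30406730 counts. Genes were kept with edgeR's filterByExpr (11841), scaled by TMM and tested with edgeR 4.0.16 (glmQLFit with legacy=FALSE) in R 4.3.3, high-fiber over control, with an adjusted p threshold of 0.05; the SE was taken from the log2 fold change and the F statistic. The biological coefficient of variation over all genes was 0.607, and the fit left 2 residual degrees of freedom. Replicates are separate mice, and the 2 per diet limit every p-value. The fit was also run on counts simulated with the means and dispersions fitted to these data, and that outcome is not reported here. Alternatives were RLE, upper-quartile or no scaling, no filter, a 5 CPM filter, limma-voom (limma 3.58.1), DESeq2 1.42.0, a robust prior, legacy=TRUE, a replicate block and leaving out each library. Added after seeing the data were DESeq2 without each library and the union-exon length. The limit that a count of 0 allows is 3 counts of the library, which covers counting error only, and PCR copies are not independent molecules. The members and lists were chosen with earlier results of these data known. Named were all 9 members, pathway genes at an unadjusted p under 0.05 or most abundant in their list, the 2 most abundant markers of each list and those at 0, and the 5 nearest profiles; Ctss, Rfx5, Irf1, Marchf1, Cd80, Gata3, Xcr1 and other genes outside that rule were chosen after their values were seen. Some genes of the lists are counted in their totals but not reported here by name.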

Additional observations from a re-analysis of the deposited data

How the results depend on the processing

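No class II member passed the adjusted threshold in edgeR or limma-voom under any of the scalings, filters, fits or left-out libraries tried, and DESeq2 called 1, H2-Ab1. With a library left out, the number called was 0 to 2, and the 2 were H2-Ab1 and Cd74 in DESeq2 without high-fiber library 1. DESeq2 without control library 2 called H2-Ob instead (DESeq2 adjusted p = 0.00225), where the remaining control library is at 0. H2-Eb1 was the member whose sign turned: its log2 fold change of 0.07 ran from -0.13 to 0.28 in edgeR and from -0.11 to 0.31 in DESeq2 with a library left out, negative without control library 1. Of the other pathway and class I genes, edgeR called 0, but 1, Lgmn, with RLE, upper-quartile or no scaling factors and with the 5 CPM filter. EdgeR called 0 with any library left out. DESeq2 called 3, and with a library left out it called 9 (high-fiber library 1), 3 (high-fiber library 2), 4 (control library 1) and 1 (control library 2). Over all genes edgeR called 4, against 9 with the 5 CPM filter, 238 in DESeq2, and 0 without a filter, in limma-voom, with legacy=TRUE or with the replicate block, and 0 to 1 with a library left out. DESeq2 called 755 without high-fiber library 1, 191 without high-fiber library 2, 151 without control library 1 and 109 without control library 2. The replicate block left 0 members called and 2 at an unadjusted p under 0.05, against 3 without it. The sample numbers are shared between diets only as numbers: deviations of same-numbered libraries correlated at 0.041. Ciita held 0 counts in high-fiber library 2, where the depth allows up to 0.147 CPM. The cause of the changes between settings was not tested.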
